A study of Mus musculus with 2 samples.

Results

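The epidermal growth factor (EGF) family was described in the skin of Pla2g2f-transgenic mice by 10 genes: the ligands Areg, Btc, Egf, Ereg, Hbegf and Tgfa, the receptors Egfr, Erbb2 and Erbb3, and the sheddase Adam17. The genes were taken by name from the probes of the array, not by their values, and all 10 had a probe. They held 24 of the 41167 probes, and 9 of these 24 were well above background, the scanner program's flag of a clear signal, in at least 1 channel of array 1. Those 9 probes measured 6 of the 10 genes, among 10456 measured genes or transcripts.

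EGF ligands are made as membrane-anchored precursors. Metalloproteases, of which ADAM17 is the best studied for several of these ligands, cut them free, and the released ligand binds EGFR on the same or a neighbouring cell. ERBB2 binds no ligand of its own and ERBB3 has little kinase activity, so both signal mainly in pairs with other family members. In skin the pathway drives keratinocyte division and repair, and mice that lack Tgfa or carry a weak Egfr allele have wavy hair.

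Total RNA came from skin of 25-day-old Pla2g2f-Tg/+ mice and of their littermate controls, both of C57BL/6 background, and was pooled from 4 mice of each genotype. On array 1 the transgenic pool was labelled with Cy5 and the control pool with Cy3, and on array 2 the dyes were exchanged. Nothing in the labels marks the arrays as separate pools. They were therefore counted as 1 replicate, the spread given is the technical difference between the 2 arrays, and no p-value across mice exists. Which promoter drives the transgene is not stated in the labels used here.

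Ratios are log2 of transgenic over control, averaged over the arrays, and a gene was called when both arrays put it at least 2-fold apart in the same direction. The Pla2g2f probe itself gave 0.54 and 0.34, below that size. The median measured gene lay at -0.0079, and the median difference between the arrays was 0.23. Probes for spike-in control RNAs averaged 0.47 in the same units. Singly they ranged from -2.67 to 3.56 on array 1 and from -2.64 to 3.55 on array 2. The probe at 3.56 on array 1 was at -2.64 on array 2, and the probe at -2.67 was at 3.55. Averaged over both arrays, each spike-in probe lay close to 0.47. Setting their average to 0, called the spike-ins at 0 below, lowers every ratio by about that amount. Markers of the labelled tissue were present: all 10 basal and 9 of 10 suprabasal keratinocyte markers were measured.

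The values below come from 60-base probes. The first 30 bases of 8 of them are shown, as the scanner output writes them, because these 8 give the values described at length for Areg, Egf, Btc and the receptors. Capitals mark the first AATAAA, the usual polyadenylation signal. A further copy that overlaps it in the Btc probe is left unmarked. Positions follow the array design (mm8), and no annotation of that build was used, so exon and untranslated parts were not assigned. Variant names are those of the record each probe is listed under. Whether a probe reports that variant alone was not tested.
Areg, chr5:92216264-92216323, plus strand: ctcagaggagtatgataatgaaccacaaat
Egf, chr3:129669930-129669989, minus strand: ataaatgatgtgatctacatagaagtctta
Btc, chr5:92433122-92433181, minus strand: ggatccttgtacattttactttacaagaga
Btc, chr5:92434205-92434264, minus strand: attattaAATAAAtaaaagaaaagtggaaa
Egfr variant 1, chr11:16813815-16813874, plus strand: gttgcaagccactctaactgtagcaatgaa
Egfr variant 2, chr11:16783545-16783604, plus strand: caacactctggtctggaagtatgcagatgc
Erbb2, chr11:98252879-98252938, plus strand: ggctatgccaggaacgtgccctgaggaacc
Erbb3, chr10:127970642-127970701, minus strand: gttgcagatacacactcattacaagccaat
Over their full length, 1 of the 24 probes holds AATAAA as written, against 4.78% of all probes on the array. Another 1, for Egfr, holds the reverse complement TTTATT, against 4.24% of all probes. The longest run shared by probes of different genes of the family was 11 bases, between Erbb2 and Erbb3. Probes of the same gene can overlap: a pair for Erbb3 shares 40 bases.

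Areg was the only called gene of the family. It encodes amphiregulin, an EGFR ligand of keratinocytes. Its single probe (NM_009704) read 358.9 in the control channel of array 1 and 171.4 in the transgenic channel. The control signal was well above background and the transgenic signal was not, although it was significant over background by the scanner program's own flag. The log2 ratio was -1.07 on array 1, with a spot error of 0.35 by the program's error model, and -1.20 on array 2. The mean of -1.13 puts the control pool 2.19-fold above the transgenic pool, and the arrays differed by 0.13. The lowest Cy5 signal that was well above background was 190.0. With the transgenic channel taken as that value, the deposited signals put Areg 1.89-fold lower on array 1, called a bound here. It is not a strict limit, because some channels that were not well above background read higher, such as 233.3 for Egfr. That bound assumes the lowest signal for the dim channel, rests on 1 array and depends on its processing. After normexp and loess on array 1 the mean was -0.71 with array 2 kept at -1.20, so array 1 then fell short of the bound.

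Among all measured genes, 1.68% were at least 2-fold lower on each array and 3.73% at least 2-fold higher. In the family 1 of 6 measured genes was lower, 0 were higher and 5 were not called. A single gene carries that share, and it was known before the list was drawn up. The call needs array 1 as deposited: with normexp background correction and loess on that array the mean of Areg was -0.71 and 0 members were called. Of the 176 genes called lower, 90 were dim in the transgenic channel of array 1 as Areg was.

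Egf, the ligand that gave the family its name, was measured in both channels. Its probe (NM_010113) read 343.6 in control and 393.6 in transgenic skin on array 1. The ratios were 0.20, with a spot error of 0.28, and 0.58, a mean of 0.39 or 1.31-fold. Both arrays lay above 0, but the arrays differed by 0.38, about as much as the mean itself, and the mean was -0.081 with the spike-ins at 0.

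The other 4 ligands were not well above background in either channel of array 1. Their 7 probes read between 89.5 and 170.4, below the lowest signals well above background in either channel (190.0 in Cy5 and 199.0 in Cy3). Ratios of Btc, Ereg, Hbegf and Tgfa therefore rest on dim signals in both channels of array 1, and none of these genes was read by the size rule in the main setting.

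Btc encodes betacellulin, a ligand of EGFR and of ERBB4. Its brighter probe, at chr5:92433122-92433181, read 170.4 in control, significant over background, and 109.3 in transgenic skin. The ratios were -0.64 and -1.02, with a spot error of 0.53 on array 1. The other probe, the one with AATAAA, read 94.8 and 108.9 and gave 0.20 and 0.34. The 2 Btc probes thus had opposite signs on both arrays, and the gene's mean ran from -0.83 by the brighter probe to -0.28 over both.

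**Figure D1:**
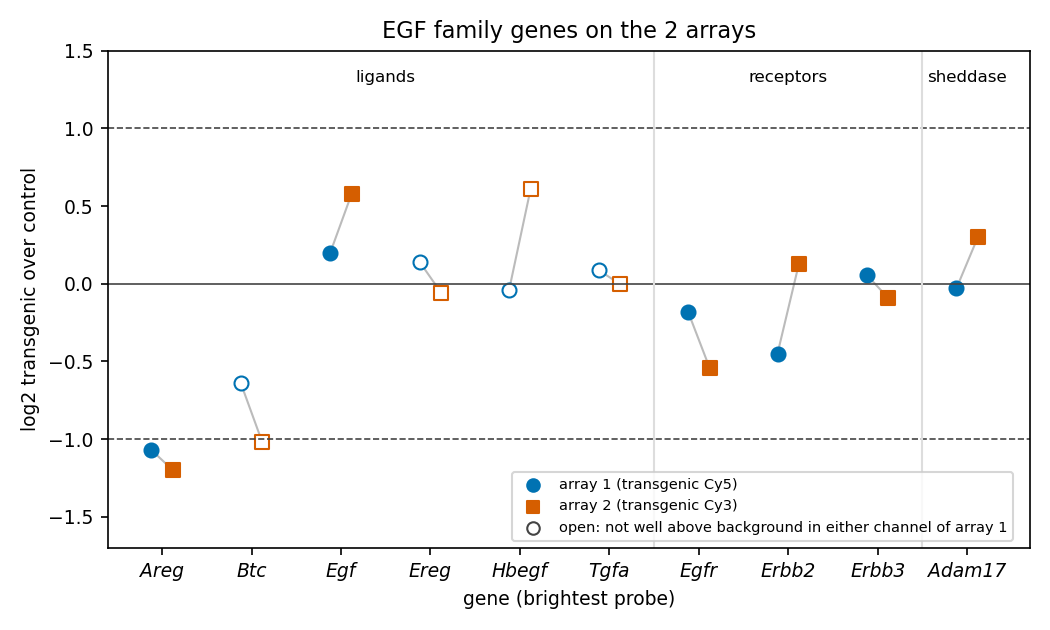
Log2 transgenic over control (vertical axis) of the brightest probe of each of the 10 genes (horizontal axis) on array 1 (circles) and array 2 (squares), with dashed lines at 2-fold. Areg is the only gene past the lower line on both arrays (-1.07 and -1.20); open symbols mark the 4 ligands that were not well above background in either channel of array 1.

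Hbegf encodes heparin-binding EGF-like growth factor, which is induced in wounded epidermis. Its probe read 147.7 and 143.9, both significant over background but not well above it, with ratios of -0.038 and 0.61. The sign differed between the arrays. Ereg encodes epiregulin. Its RefSeq probe (NM_007950) gave 0.14 and -0.058, and a second probe, named Ereg by the array through a cDNA on the other strand, gave 0.041 and 0.17. Tgfa encodes transforming growth factor alpha, a ligand of the hair follicle and epidermis. Its probes gave 0.088 and -0.0024, and -0.13 and 0.033.

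The Ereg, Areg and Btc probes lie within 307.2 kb of chromosome 5, where these ligand genes neighbour each other. Epgn, which encodes the ligand epigen, has its probe beside them at chr5:92110293-92110352. Epgn was measured in both channels, with ratios of 0.33 and -0.037. Of these 4 neighbours, only Areg and Epgn were measured, and Areg was called. Btc and Ereg were too dim for the size rule to be read on them.

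The receptors were all measured in both channels and none (0 of 3) was called. Their means ranged from -0.36 to -0.019. Setting the spike-ins to 0 brought them to -0.83 for Egfr, -0.63 for Erbb2 and -0.49 for Erbb3, with 0 called.

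Egfr encodes the receptor that all 6 ligands bind. Its brightest probe (NM_207655, transcript variant 1) read 4499.9 in control and 3973.9 in transgenic skin. The ratios were -0.18, with a spot error of 0.21, and -0.54, a mean of -0.36. The control pool was thus 1.28-fold higher, below the size rule, on a difference between the arrays of 0.36. Both arrays lay below 0, as for 35.7% of all measured genes.

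Egfr had 6 probes, of which 3 passed the background flag in a channel of array 1. The probe for a clone (AK033431) at chr11:16817630-16817689, on the same strand beyond the variant 1 probe, gave -0.0038 and -0.31. The probe listed under transcript variant 2 (NM_007912) read 343.4 in control, well above background, and 233.3 in transgenic skin, which was not. Whether it and the variant 1 probe report separate transcripts was not tested. It gave -0.56 and -0.34, a mean of -0.45. The means of these 3 probes were thus all below 0, from -0.45 to -0.16, and none reached 2-fold on either array. The remaining 3 Egfr probes were not well above background in either channel, and their means lay between -0.12 and -0.0091. One of them, at chr11:16812181-16812240, read 0.35 on array 1 and -0.59 on array 2, the widest disagreement of any probe of the family (0.94).

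Erbb2 gave opposite signs on the arrays. Its brighter probe (NM_001003817) read 1581.1 in control and 1160.5 in transgenic skin. The ratios were -0.45, with a spot error of 0.21, and 0.13, which differed by 0.58, the most of any measured gene of the family. Its mean of -0.16 is smaller than that disagreement. The other Erbb2 probe was not well above background and gave 0.21 and 0.077.

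Erbb3 stayed closest to 0. Its brightest probe (XM_972868) read 3128.5 and 3252.6, with ratios of 0.056 and -0.094, a mean of -0.019 and a spot error of 0.21. The arrays differed by 0.15. The 4 other Erbb3 probes, all for NM_010153, were not well above background in either channel, with signals from 79.0 to 106.1 and means between -0.13 and 0.15. The Erbb3 value therefore rests on the probe shown above alone. That probe was assigned to Erbb3 by its symbol, the 4 dim ones by RefSeq accession. Whether it reports the same transcripts as those 4 was not tested.

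**Figure D2:**
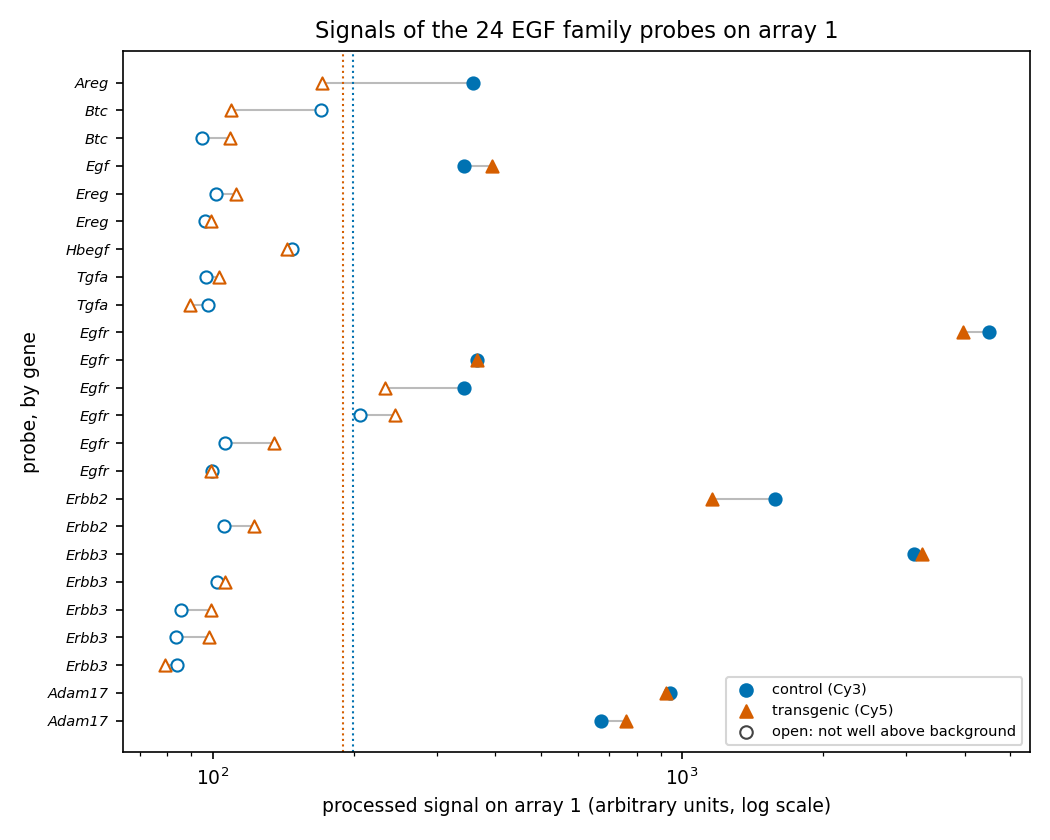
Processed signal on array 1 (horizontal axis, arbitrary units, log scale) of all 24 probes of the 10 genes (vertical axis) in the control channel (circles) and the transgenic channel (triangles). Filled symbols were well above background, dotted lines mark the lowest such signal of any probe (199.0 in Cy3 and 190.0 in Cy5), and all 7 probes of Btc, Ereg, Hbegf and Tgfa lie left of them.

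Erbb3 is also a gene of Schwann cells and of melanocytes. Of 8 Schwann cell markers 6 were measured and 0 called, with a median ratio of 0.51 (0.039 centred on the spike-ins) and summed signals on array 1 of 13457.9 in control and 22217.2 in transgenic skin. Of 8 melanocyte markers 6 were measured and 4 were lower, with a median of -1.28 and summed signals of 26903.9 and 12224.4. The melanocyte count was 5 with the spike-ins at 0 (median -1.75) and 1 after normexp and loess on array 1 (median -1.04). The part of these cells in the Erbb3 value was not tested.

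Adam17 was measured by both of its probes (NM_009615), 1 beside the other on chromosome 12. The brighter, at chr12:21571282-21571341, read 942.7 in control and 923.5 in transgenic skin, with ratios of -0.030 and 0.30 and a spot error of 0.22. The other, at chr12:21571174-21571233, read 671.5 and 760.7, with ratios of 0.18 and 0.30. The means of 0.14 and 0.24 were both below the size rule, and the first became -0.33 with the spike-ins at 0.

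**Figure D3:**
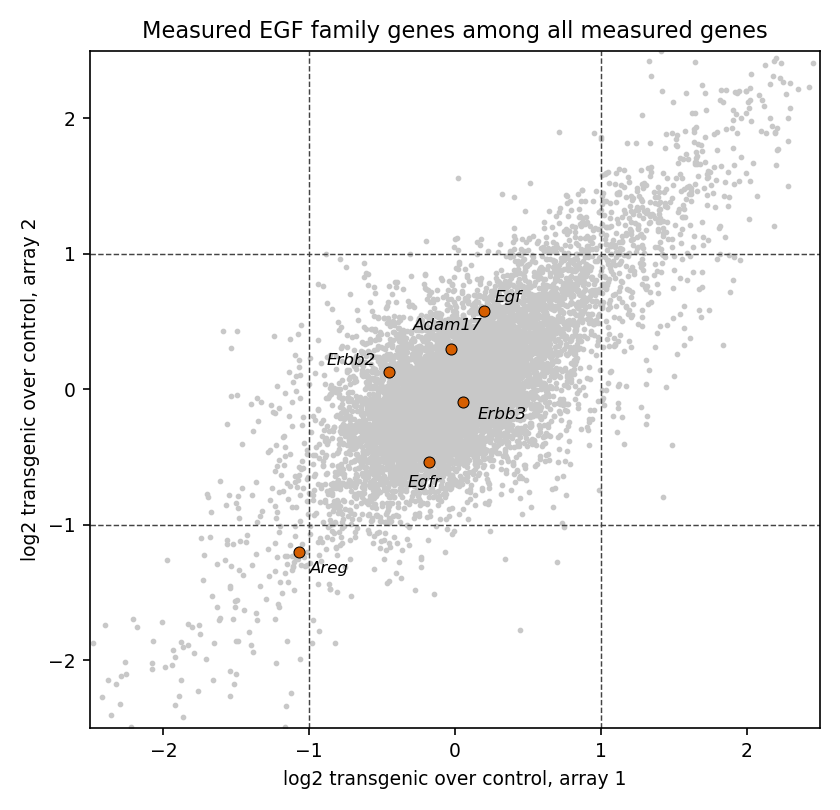
Log2 transgenic over control on array 1 (horizontal axis) and array 2 (vertical axis) of the 10456 measured genes (grey points, 113 of them outside the plotted range of 2.5) and of the 6 measured EGF family genes (named points), with dashed lines at 2-fold. Areg lies in the lower left corner past both lines, and the other 5 lie between the lines.

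The median of the 6 measured genes was -0.089, beside -0.0079 over all measured genes. Below 0 on both arrays were 2 of the 6 (Areg and Egfr), against 35.7% of all measured genes. Above 0 on both was 1 (Egf), against 35.3%, and 3 had opposite signs (Erbb2, Erbb3 and Adam17), against 29.1%. Of the 6, 4 differed between the arrays by more than the median difference of 0.23.

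In whole-skin RNA, fewer cells of a type and less RNA per cell cannot be told apart. Hair matrix and shaft markers were lower in 10 of 10 measured genes of 12 listed, with a median of -2.24. Their summed signals were 84426.6 in control and 13016.3 in transgenic skin. After normexp and loess on array 1 that count was 8 of 10 (median -2.09). Inner root sheath markers were lower in 6 of 7. Of 10 basal keratinocyte markers 0 were lower and 1, Krt14, was higher (median 0.16, or -0.30 centred on the spike-ins with 0 called). Outer root sheath markers, with 7 of 8 measured, had a median of -0.054 and 1 lower. The part of these cells in the Areg and Egfr values was not tested.

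Other ligands and the remaining receptor of the family were read from a list of 6 genes. Of 5 with a probe 3 were measured, 1 was higher and 0 lower. Nrg4, which encodes neuregulin 4, a ligand of ERBB4 that fat tissue secretes, was higher. Its probe (NM_032002) read 164.9 in control, not well above background, and 704.9 in transgenic skin. The ratios were 2.10, with a spot error of 0.34, and 1.91, a mean 4.01-fold ratio. With the control channel taken as 199.0, the bound from the deposited signals put Nrg4 3.54-fold higher on array 1.

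Nrg4 was also higher with the spike-ins at 0 (mean 1.53). After normexp and loess on array 1 it did not pass the size rule (mean 1.25), and array 1 fell short of the bound. Adipocyte markers were higher in 6 of 7 measured genes of 8 listed, with a median of 1.40 and summed signals of 105874.9 in control and 336339.4 in transgenic skin. With the spike-ins at 0 the adipocyte count was 2 of 7 (median 0.93), and after normexp and loess on array 1 it was 3 of 7. The part of fat cells in the Nrg4 value was not tested. Erbb4, the receptor of Nrg4, was measured by 1 of its 4 probes (XM_136682), assigned by symbol. Its ratios were 0.16 and 0.025, a mean of 0.093, or -0.38 with the spike-ins at 0. The other Erbb4 probes, assigned by RefSeq accession, read between 88.2 and 111.3 on array 1 and were not well above background.

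Other genes of ligand shedding and maturation were 13, of which 9 were measured and 0 called. Their median was 0.065, or -0.40 centred on the spike-ins. The largest means were 0.48 for Adam15, a metalloprotease, 0.33 for Furin, which activates ADAM precursors, and -0.33 for Nrd1, which encodes a protein that promotes shedding. Furin became -0.14 with the spike-ins at 0, and Nrd1 had opposite signs on the arrays, -0.72 and 0.073.

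Inhibitors and feedback genes of the receptors were 18, of which 12 were measured and 0 called, with a median of -0.015. Errfi1, which encodes a direct inhibitor of the EGFR kinase, had ratios of 0.60 and 0.81, a mean of 0.71 that lowered to 0.24 with the spike-ins at 0. Dusp6, a phosphatase of ERK and a transcript that ERK signalling induces, had ratios of -0.50 and -0.68. Spred2, an inhibitor of RAS signalling, had -0.32 and -1.01. With the spike-ins at 0, Dusp6 passed the size rule as lower, the only called gene (1) of this list there. In that setting 476 of the 10456 measured genes were lower.

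Adaptors and kinases that relay the signal were 25, of which 21 were measured and 0 called, with a median of -0.0054. Stat3, a transcription factor that EGFR and cytokine receptors activate, had ratios of 0.77 and 0.80. Braf, a kinase between RAS and ERK, had -0.83 and -0.83 by its brightest probe, and its 3 probes well above background in at least 1 channel had means between -1.21 and -0.83. Gab1, a docking protein of the receptors, had -0.59 and -0.62 and its transgenic channel was dim on array 1. Braf and Gab1 were called lower with the spike-ins at 0, 2 of the 21 measured, beside 476 of 10456 over all genes there.

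The list of genes that EGF induces early or later held 25 names, of which 23 had a probe and 19 were measured. Ccn1, which was measured, was listed also under its former name Cyr61, which counts among the names without a probe. Of the 19 measured, 1 was higher, 1 was lower and 17 were not called. Their median of 0.37 turned to -0.099 with the spike-ins at 0. Fos, an immediate early transcription factor, had ratios of 2.18 and 1.20, with a control channel that was dim on array 1 (156.5 against 710.6). The bound from the deposited signals put it 3.57-fold higher on that array. With the spike-ins at 0 the list had 0 higher and 2 lower, beside 172 and 476 of the 10456 measured genes. Fos no longer passed there. Ccnd1, a cyclin of early cell cycle entry with ratios of -0.99 and -0.77 as deposited, was called lower beside Etv4. Etv4, an ETS transcription factor downstream of ERK, read 587.8 in control and 183.7 in transgenic skin, where it was dim. Its ratios were -1.68 and -1.09, and the bound from the deposited signals put it 3.09-fold lower on array 1. After normexp and loess on array 1 neither Fos (mean 0.87) nor Etv4 (mean -0.77) passed, and neither bound held there. The genes of this list respond to many stimuli besides EGF.

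**Figure D4:**
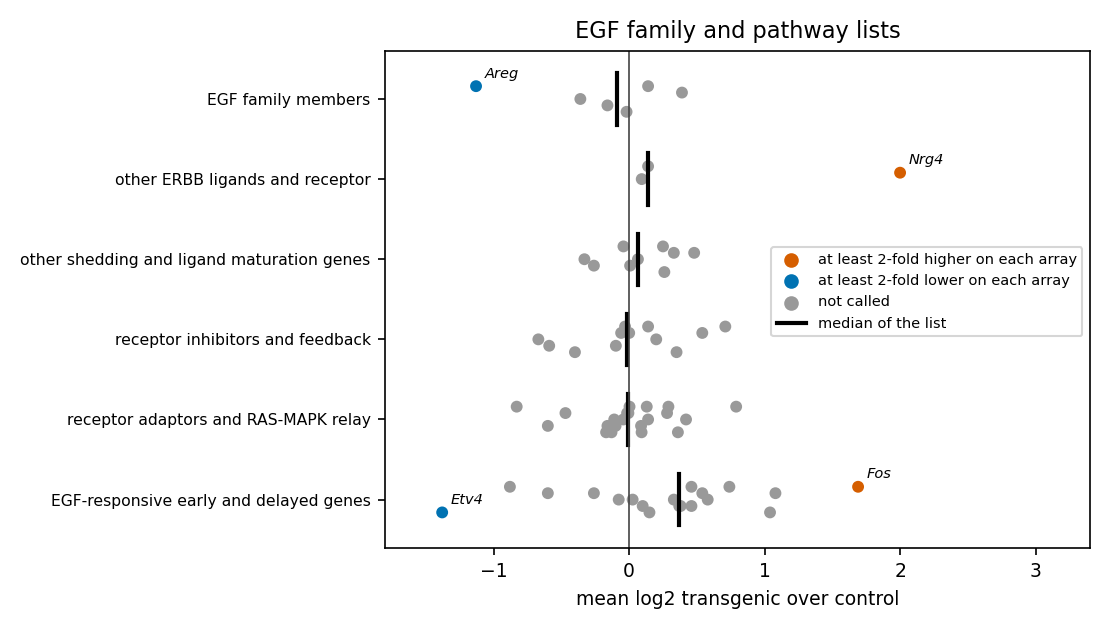
Mean log2 transgenic over control (horizontal axis) of each measured gene in the EGF family and in the 5 pathway lists (vertical axis), with a bar at each list's median. Coloured points are the genes at least 2-fold apart the same way on each array (Areg, Nrg4, Fos and Etv4), and with the spike-ins at 0 all of these medians lie below 0.

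The sign of the mean held in every alternative that gave a value for Areg (7 of 7, from -1.60 to -0.71), Egfr (8 of 8, from -0.83 to -0.18) and Btc (6 of 6, from -1.30 to -0.28, dim throughout). Several of those alternatives could not turn it. The probe used for each of these genes lay below 0 on both arrays, and setting the spike-ins to 0 only lowers ratios. For the remaining genes of the family at least 1 alternative turned the sign. Egf turned with the spike-ins at 0 only, to -0.081, and Erbb2 turned on array 2 alone, to 0.13.

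**Figure D5:**
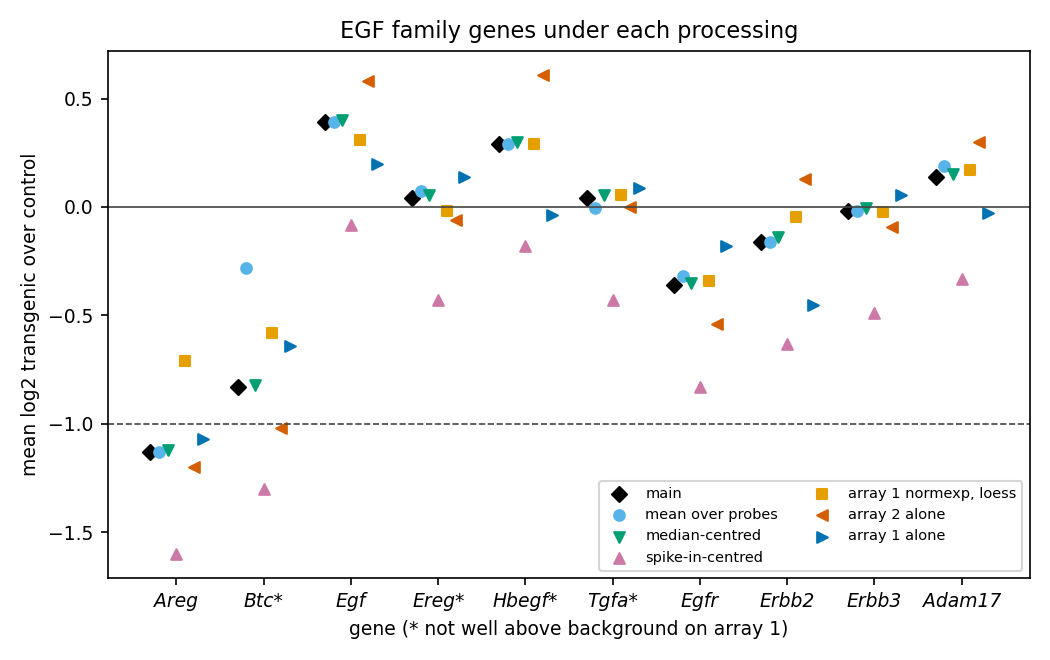
Mean log2 transgenic over control (vertical axis) of the 10 genes (horizontal axis, asterisks for genes not well above background on array 1) under each processing (symbols). Areg stays below 0 throughout but lies above the 2-fold line, at -0.71, after normexp and loess on array 1, and with the spike-ins at 0 all 10 genes lie below 0.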

How the data were processed

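Arrays were Agilent two-colour arrays hybridised from 500 ng of total RNA, per the labels' protocols. The deposited scanner output of array 1 gives intensity values that Agilent Feature Extraction 9.5.1.1 had background-subtracted, detrended and dye-normalised, with surrogates for dim values, per the file headers. Such replacement draws ratios of dim spots towards 0. Per the file headers, that program also wrote the deposited log10 ratios and an error score for each. A deposited p-value per spot, from an error model of 1 array, was left unused. The value table's column of array 1 equals the log10 ratio of its processed signals within 1e-08 at 43790 features. The column of array 2 correlated with it at -0.579, as exchanged dyes do, so its sign was turned. Detection flags of array 2 were not analysed here.

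Log10 ratios were converted to log2. Controls and 29 outlier spots were left out. No spot other than controls (0) was saturated on array 1. Probes were named by RefSeq accession, symbol or synonym (GRCm38.p6 table). The brightest probe well above background in at least 1 channel stood for a gene. A bound sets a dim channel to the higher of its own signal and the lowest signal well above background. Some dim channels read above that lowest signal, so a bound is not a strict limit. It applies to the deposited signals of array 1 only. Over 10 probes printed 10 times, repeat spots varied by a median SD of 0.094 (array 1) and 0.097 (array 2) on the log2 scale. The number of arrays limits precision. Normexp (offset 50) and loess used limma 3.58.1.

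Members and lists were chosen with earlier results of these data known. All members are named, and from each pathway list the genes past the size rule, otherwise the 3 with the largest absolute means. Epgn and Erbb4, and genes called only under an alternative, were named after their values were seen. As spike-ins, 10 probes well above background in both channels were averaged per array. The designed spike-in ratios are not given in these sources.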

Additional observations from a re-analysis of the deposited data

How the results depend on the processing

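Over all genes, 390 were higher and 176 lower. Centred on the spike-ins the counts were 172 higher and 476 lower. With array 1 by normexp and loess they were 107 and 56, and with the background flag required in both channels 243 and 86. At 1.5-fold they were 864 and 397. From a single array, 520 to 570 genes were higher and 259 to 274 lower, the 274 from array 1 (without array 2). In the EGF family 1 gene, Areg, was lower and 0 higher. That count also held without the filter on dim probes, with probes averaged, under both centrings, at 1.5-fold and from either array. Most of these settings could not have removed Areg. It has 1 probe, passed at 2-fold on each array, and spike-in centring lowers every ratio. The count of lower genes was 0 after normexp and loess and 0 with both channels required, which removes Areg. The family median of -0.089 moved to 0.011 over all 10 genes without the filter, to -0.56 centred on the spike-ins, and ran from -0.10 on array 1 to 0.017 on array 2. Signal over background limits Btc, Ereg, Hbegf and Tgfa, and each dye orientation had 1 array, so slide and scan were not tested as batches. The causes of these shifts were not tested, other than the loss of Areg with both channels required.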
